A study of Homo sapiens with 18 samples.

Results

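The genes described here are the replication-dependent histone genes, the clustered genes that supply histones to newly made DNA. They were taken as every endogenous row whose name begins with HIST1H, HIST2H, HIST3H or HIST4H, which gave 45 of 17026 genes. Of these, 4 encode the linker histone H1, 11 H2A, 13 H2B, 9 H3 and 8 H4. The annotation places the 35 HIST1 genes on chromosome 6, the 8 HIST2 genes and HIST3H2A on chromosome 1 and HIST4H4 on chromosome 12. RNA was measured in 3 established lines of human pancreatic ductal adenocarcinoma, which are BxPC-3, MiaPaCa-2 and PANC-1. Cells had been exposed for 6 h to 100 nM THZ1, a covalent inhibitor of the transcription kinase CDK7, or to its solvent DMSO. The groups were BxPC-3 with THZ1, BxPC-3 with DMSO, MiaPaCa-2 with THZ1, MiaPaCa-2 with DMSO, PANC-1 with THZ1 and PANC-1 with DMSO, each with 3 libraries that the series' design text calls biological triplicates. Libraries were made from polyadenylated RNA, and ERCC spike-in RNA was added to the extracted total RNA.

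Histone H2A, H2B, H3 and H4 form the core of the nucleosome, and histone H1 binds the DNA between nucleosomes. Replication-dependent histone genes are transcribed mainly in S phase. Their mRNAs normally end not in a poly(A) tail but in a conserved stem-loop, which the stem-loop binding protein SLBP holds during processing, translation and decay. Some of these genes can also give polyadenylated transcripts, and a library made from polyadenylated RNA reports mainly such transcripts, or whatever tailless RNA passes the selection. The levels given below are therefore levels in the polyadenylated fraction and not total histone mRNA.

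Stem-loop and promoter sequences bear on these genes, and the stem-loop is shown first because it marks the end at which a replication-dependent histone mRNA is normally cut. A search of the annotated transcripts for a perfect stem of 6 base pairs that begins GG, closed by a loop of 4 bases that begins TT, found it in 16 of the 45 genes. For many other members the annotation stops at the stop codon, so that a missing match says only that the letters are not in the annotated transcript. In the 5 lines that follow, capitals mark both arms of the stem and the loop.
HIST1H2AC: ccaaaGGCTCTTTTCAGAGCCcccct
HIST3H2A: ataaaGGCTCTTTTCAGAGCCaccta
HIST1H2BD: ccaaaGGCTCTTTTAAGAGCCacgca
HIST1H4H: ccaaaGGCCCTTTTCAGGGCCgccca
HIST2H2BE: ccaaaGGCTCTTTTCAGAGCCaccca
The core was identical in HIST1H2AC, HIST3H2A and HIST2H2BE. HIST1H2BD differed from them in the loop and HIST1H4H in the stem, and the 4 H4 genes with a match all had a core that no other family had. In HIST2H2BE the stem-loop ended at base 465 of an annotated transcript of 2194 bases, and in HIST1H2AC at base 540 of 1668, so both had annotated RNA well past the usual cleavage site. A transcript with a poly(A) signal (AATAAA or ATTAAA) in its last 40 bases was annotated for 17 of the 45 genes. Where the annotation stops at the stop codon, this search too could not find a signal.

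Promoters are shown as background on these genes, and their part in the response to THZ1 was not tested. RefSeq promoter sequences (GRCh38.p14) could be matched for 36 of the 45 genes. The 120 bases before the annotated start are printed for the 4 matched members with the highest means over all libraries among those given by library, from chr6:26056471-26056590 (minus strand) for HIST1H1C, chr6:26124052-26124171 (plus strand) for HIST1H2AC, chr6:27146859-27146978 (minus strand) for HIST1H2BK and chr1:149886683-149886802 (minus strand) for HIST2H2BE. Capitals mark the TATA box letters TATAAA, the CCAAT box on either strand (CCAAT or ATTGG) and the octamer ATTTGCAT on either strand.
HIST1H1C: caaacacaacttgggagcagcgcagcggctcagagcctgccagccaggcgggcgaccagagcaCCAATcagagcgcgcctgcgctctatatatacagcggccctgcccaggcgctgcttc
HIST1H2AC: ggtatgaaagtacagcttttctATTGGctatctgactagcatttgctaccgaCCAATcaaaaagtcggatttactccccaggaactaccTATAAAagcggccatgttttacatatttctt
HIST1H2BK: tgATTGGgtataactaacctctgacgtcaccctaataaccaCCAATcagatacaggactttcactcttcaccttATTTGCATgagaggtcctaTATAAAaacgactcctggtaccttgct
HIST2H2BE: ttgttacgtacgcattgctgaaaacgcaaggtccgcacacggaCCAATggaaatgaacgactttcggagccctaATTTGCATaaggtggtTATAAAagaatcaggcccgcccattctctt
Within 250 bases before the start, TATAAA occurred in 69.4% of the matched histone promoters and in 10.72% of all 35116 RefSeq promoters. CCAAT occurred in 88.9% against 32.01%, with 2 of the 6 matched H4 promoters holding it. The octamer occurred in 36.1% against 1.63%, and 7 of the 9 matched H2B promoters held it. These matches are letters in a window and were not measured as binding sites.

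Levels are the authors' deposited values multiplied by a constant, so that the endogenous genes of the mean library sum to 1e+06. They are not divided by gene length, so that members can be compared across groups but not with each other. Library sums of all endogenous genes differed with treatment. In BxPC-3 they ran over 1319130 to 1350246 with THZ1 and 800552 to 808905 with DMSO. In MiaPaCa-2 they ran over 1306988 to 1328177 with THZ1 and 835240 to 844038 with DMSO. Ratios of summed histone levels in these lines include this difference, whereas shares of reads do not. Recovered reads per library ran over 6336140 to 20862888, and 1 unit stood for 6.34 to 24.7 reads. Histone genes were sparse in these libraries. Their mean level over all libraries was under 1 for 6 members, 1 to 5 for 29 and at least 5 for 10, and 18 members had 3 reads or fewer in at least 1 library. All 45 had a row, and 43 passed the filter on low values. HIST2H2AA4 and HIST1H3E did not, with levels of 0.0589 to 0.947 and 0.162 to 1.34. The labelled identity of the lines was compared with epithelial and mesenchymal markers. KRT18 was at least 163.9 and KRT8 at least 658.9 in every library. KRT7 and CDH1 were at least 1888 and 285.2 in BxPC-3 and at most 7.26 and 4.89 in the other lines, while VIM was at least 1200 in MiaPaCa-2 and PANC-1 and at most 28.6 in BxPC-3. KRT19 did not follow KRT7 and CDH1: it was 1359 to 2012 in BxPC-3, 706.4 to 974.7 in PANC-1 and 55.4 to 86.4 in MiaPaCa-2. ZEB1 was at least 21.6 in MiaPaCa-2 and PANC-1 and at most 1.17 in BxPC-3. The leukocyte marker CD74 was at most 5.998 and the endothelial marker VWF at most 6.79 in any library, while EPCAM, CDH2, PTPRC, DCN, LUM and PECAM1 were not analysed here.

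One library stands apart and bears on most of what follows. PANC-1 DMSO replicate 1 was the shallowest, and its genes scattered most around their group means, with a residual SD of 0.519 log2 units where the other libraries had 0.103 to 0.309. Its summed histone level was 305.8, against 100.4 and 97.1 in PANC-1 DMSO replicates 2 and 3. The fit estimates 1 spread per gene from all groups, so this library enters the standard errors of every line, and results are also given without it.

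MiaPaCa-2 showed the larger change. THZ1 libraries had summed histone levels of 608.0, 604.2 and 560.8, against 154.0, 156.4 and 154.4 in DMSO libraries, a 3.81-fold ratio of means. Part of this ratio is the higher sum of all endogenous genes with THZ1 on this scale. Every THZ1 library lay above every DMSO library for the sum and for each of the 5 families. The share of all endogenous reads that fell on histone genes, which needs no scaling between libraries, was 0.0426 to 0.0462% with THZ1 and 0.0182 to 0.0187% with DMSO. The widest exact binomial 95% intervals of these shares ran 0.0414 to 0.0437% for a THZ1 library and 0.0177 to 0.0191% for a DMSO library, and they cover counting error only. In bulk RNA, fewer cells that express a gene and less RNA per cell cannot be told apart.

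In BxPC-3 the same sum was 325.0, 337.6 and 352.4 in THZ1 libraries, against 148.4, 151.9 and 151.8 in DMSO libraries, a 2.25-fold ratio. Here too, part of the ratio is the higher sum of all endogenous genes with THZ1. The histone share of reads was 0.0246 to 0.0262% with THZ1 and 0.0185 to 0.0188% with DMSO. THZ1 and DMSO libraries did not overlap for any of the 5 families. The ratio depended on the scale: with libraries scaled to the ERCC sum it was 0.981 in BxPC-3, 1.56 in MiaPaCa-2 and 0.686 in PANC-1.

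For PANC-1, THZ1 libraries summed to 131.2, 128.2 and 133.8, against 305.8, 100.4 and 97.1 in DMSO libraries. The THZ1 libraries lay between DMSO replicate 1 and the other DMSO libraries, so the groups overlapped. The ratio of means was 0.781 with all 3 DMSO libraries and 1.33 without DMSO replicate 1.

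**Figure D1:**
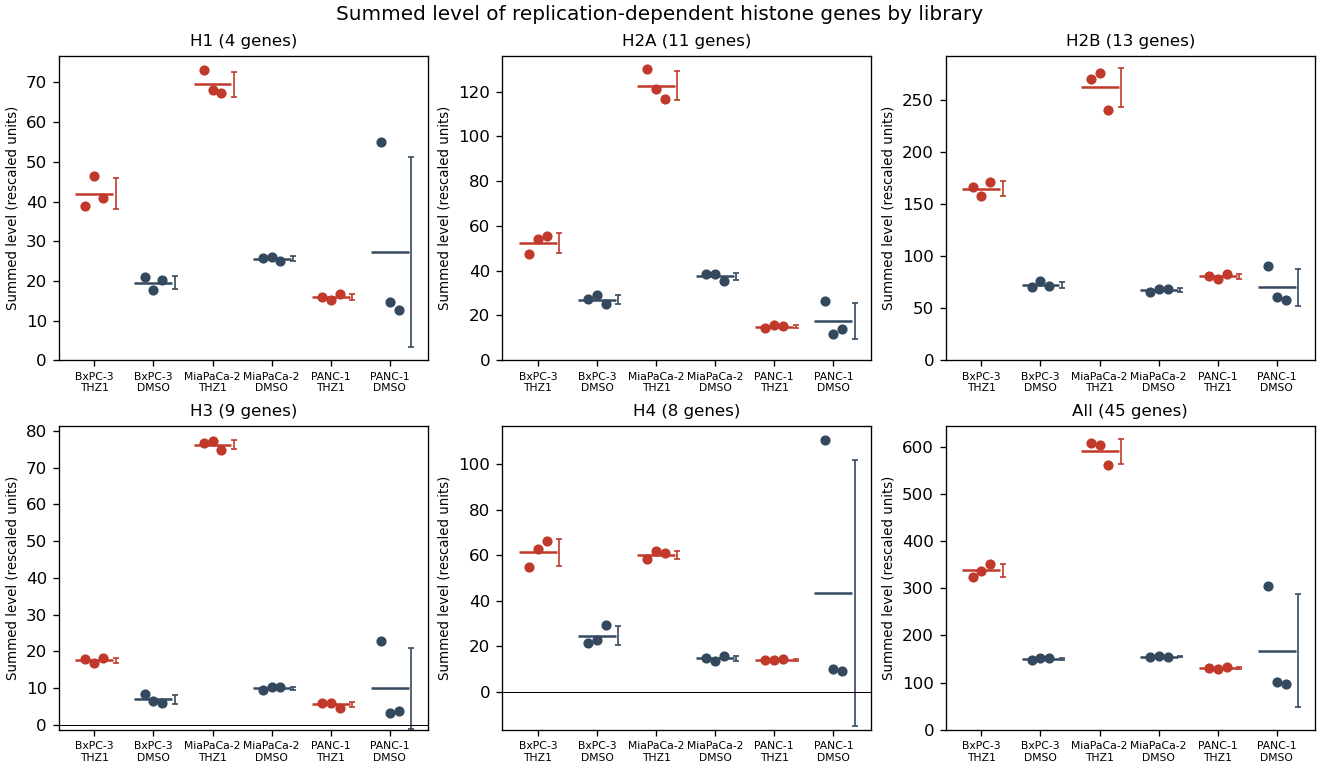
Summed level of the members of each histone family and of all 45 genes (vertical axes, rescaled units) in each of the 18 libraries, with THZ1 left of DMSO for each line; points are libraries, horizontal lines group means and brackets 1 SD. THZ1 and DMSO points are separate in BxPC-3 and MiaPaCa-2 on this scale, whereas on the ERCC scale the BxPC-3 ratio of all genes was 0.981, and PANC-1 DMSO replicate 1 lies above the other PANC-1 libraries in every panel.

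By family, MiaPaCa-2 showed the largest ratio for H3, 76.3 ± 1.3 with THZ1 and 9.88 ± 0.50 with DMSO (SD, n = 3 each), 7.72-fold. H4 averaged 60.1 ± 1.8 with THZ1 and 14.6 ± 1.2 with DMSO, 4.13-fold. H2B averaged 262.4 ± 18.7 with THZ1 and 67.5 ± 1.5 with DMSO, 3.89-fold. The ratios were lower for H2A, 3.28-fold, and for H1, 2.72-fold. On the ERCC scale these ratios were 3.17 for H3, 1.70 for H4, 1.59 for H2B, 1.34 for H2A and 1.11 for H1. The ERCC sums were 5398, 3890 and 4036 in MiaPaCa-2 THZ1 libraries, against 1923, 1745 and 1709 in DMSO libraries. With each library divided by its ERCC sum, the H1 levels of the THZ1 and DMSO groups overlapped. BxPC-3 spread less, with ratios of 2.55 for H3, 2.49 for H4, 2.27 for H2B, 2.15 for H1 and 1.94 for H2A, and on the ERCC scale they ran over 0.849 for H2A to 1.12 for H3, so that H1, H2A and H2B were below 1 there.

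The make-up of the histone signal also differed. HIST1H2BK, an H2B gene, gave 16.8% of the summed histone level in MiaPaCa-2 with THZ1 and 25.1% with DMSO. In BxPC-3 it gave 34.1% with THZ1 and 30.3% with DMSO, and in PANC-1 42.9% with THZ1 and 25.4% with DMSO. The PANC-1 DMSO share rests on replicate 1, at 14.9%: replicates 2 and 3 together had 41.7%, near the share with THZ1. HIST2H2BE, another H2B gene, gave 11.2% in MiaPaCa-2 with THZ1 and 4.80% with DMSO. The 5 highest members together held 45.7% of the signal in MiaPaCa-2 with THZ1 and 56.9% with DMSO, against 70.6% with THZ1 and 61.4% with DMSO in BxPC-3. These shares are not divided by gene length.

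Gene by gene, 41 of 43 tested members were higher with THZ1 in MiaPaCa-2 at an adjusted p under 0.05 and 0 were lower (limma on log2 of level plus 1, Benjamini-Hochberg over all 15354 genes tested). Over all genes tested, 36.5% were called higher and 19.8% lower, so the members' 95.3% lay far above that background. The median log2 fold change was 1.59 over the members and 0.19 over all genes. A change of at least 1 on the log2 scale was reached by 35 members and of at least 2 by 13. THZ1 and DMSO libraries did not overlap for 43 of 43 members, all with THZ1 higher, against 47.6% of all genes with THZ1 higher and 26.2% with THZ1 lower. HIST2H3D and HIST1H2BB reached the filter level of 1 only in MiaPaCa-2 THZ1 libraries. HIST2H2AA3 reached it only there and in PANC-1 DMSO replicate 1. HIST1H4A reached it there, in that PANC-1 library (1.89) and in MiaPaCa-2 DMSO replicate 3 (1.002). HIST1H3A and HIST1H4D reached it in THZ1 libraries of MiaPaCa-2 and BxPC-3 and in that PANC-1 library, HIST1H4D also in MiaPaCa-2 DMSO replicate 3. These genes passed the filter through the groups where they are high, so they add no support to the counts and medians given for these lines. Other low members may have passed in the same way. The members not called were HIST1H1D, with a log2 fold change of 0.51 (adjusted p = 0.412), and HIST1H2BE, with 0.49 (adjusted p = 0.264). Without PANC-1 DMSO replicate 1 both were called (adjusted p = 0.0182 and 0.022), which made 43 of 43 against 46.2% of all genes.

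In BxPC-3, 20 of 43 members were higher and 0 lower. All genes tested gave 40% higher and 18.9% lower, so the members' 46.5% was near the background of higher calls, though none was called lower. The median log2 fold change was 0.53 over the members and 0.25 over all genes. THZ1 and DMSO libraries did not overlap, with THZ1 higher, for 31 members (72.1%, against 51.1% of all genes) and, with THZ1 lower, for 0 (against 25%). All 20 were also called in MiaPaCa-2. They include HIST1H3A, HIST1H4A and HIST1H4D, which passed the filter through THZ1 libraries and add no support to the count. Without PANC-1 DMSO replicate 1 the count in BxPC-3 was 30, 69.8% of members against 49.4% of all genes. Leaving out BxPC-3 THZ1 replicate 3 gave 13, with no share of all genes given, which shows only that the count moves.

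Counts by family stand beside 40% of all genes called higher in BxPC-3 and 36.5% in MiaPaCa-2. Families are small, with 4 to 13 genes tested, and differences between them were not tested. In BxPC-3 the called members were 1 of 4 H1 genes, 7 of 10 H2A, 5 of 13 H2B, 3 of 8 H3 and 4 of 8 H4, and in MiaPaCa-2 3 of 4, 10 of 10, 12 of 13, 8 of 8 and 8 of 8. Family medians in MiaPaCa-2 were 1.33 for H1, 1.59 for H2A, 1.55 for H2B, 2.18 for H3 and 1.45 for H4. In BxPC-3 they lay closer together, at 0.53, 0.59, 0.30, 0.46 and 0.47 in the same order of families. BxPC-3 H2B genes ranged from -0.31 to 1.37, and 4 of the 13 had a negative value that did not pass the test.

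Scaling moves the median of all genes, so the members are also given relative to it. The median of all genes with THZ1 in BxPC-3 was 0.25 as deposited, -0.65 on the ERCC scale, -0.29 with equal library sums and 0.02 with TMM factors. The MiaPaCa-2 values were 0.19, -0.86, -0.30 and 0.02. Relative to it, the members' median in MiaPaCa-2 was 1.40 as deposited, 1.51 on the ERCC scale, 1.42 with equal sums and 1.39 with TMM. The BxPC-3 values were 0.28, 0.53, 0.45 and 0.34. Spike-in RNA was added to extracted total RNA, so the ERCC scale refers to an amount of total RNA and not to a cell. Not taken relative to the median, the ERCC scale gave 22 members higher and 0 lower in MiaPaCa-2 (1.45% and 73.2% of all genes). In BxPC-3 it gave 1 higher and 7 lower (1.37% and 59.2% of all genes), with the members' median turning to -0.12. The member higher on that scale in BxPC-3 was HIST1H3J, at 0.58 (adjusted p = 0.0315).

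In PANC-1 no member passed the test in either direction: 0 of 43 higher and 0 lower, against 0.274% and 0.228% of all genes. At an unadjusted p under 0.05, 4 members were higher (10.7% of all genes) and 0 lower (11.5% of all genes). On recovered reads, edgeR with TMM factors called 0 and 0 (0.0456% and 0.0782% of all genes). DESeq2 called 2 higher, HIST1H2BK and HIST1H3J, and 1 lower, HIST1H1D (2.30% and 2.20% of all genes). PANC-1 libraries did not overlap for 2 members with THZ1 higher, HIST1H2AC and HIST1H2BK (4.65%, against 8.34% of all genes), and for 1 with THZ1 lower, HIST1H2AK (against 8.73%). The members' median was -0.24 with all libraries, turning to 0.11 without DMSO replicate 1, beside -0.07 and 0.02 for all genes. Without that library 2 members were called higher (4.65%, against 5.50% of all genes), HIST1H2BK and HIST1H3J. Without DMSO replicate 3 in place of it, 2 were higher (HIST1H2AC and HIST1H2BK, against 10.4% of all genes) and 4 lower (HIST1H4A, HIST1H1E, HIST1H1D and HIST1H2AJ, against 11.3%).

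**Figure D2:**
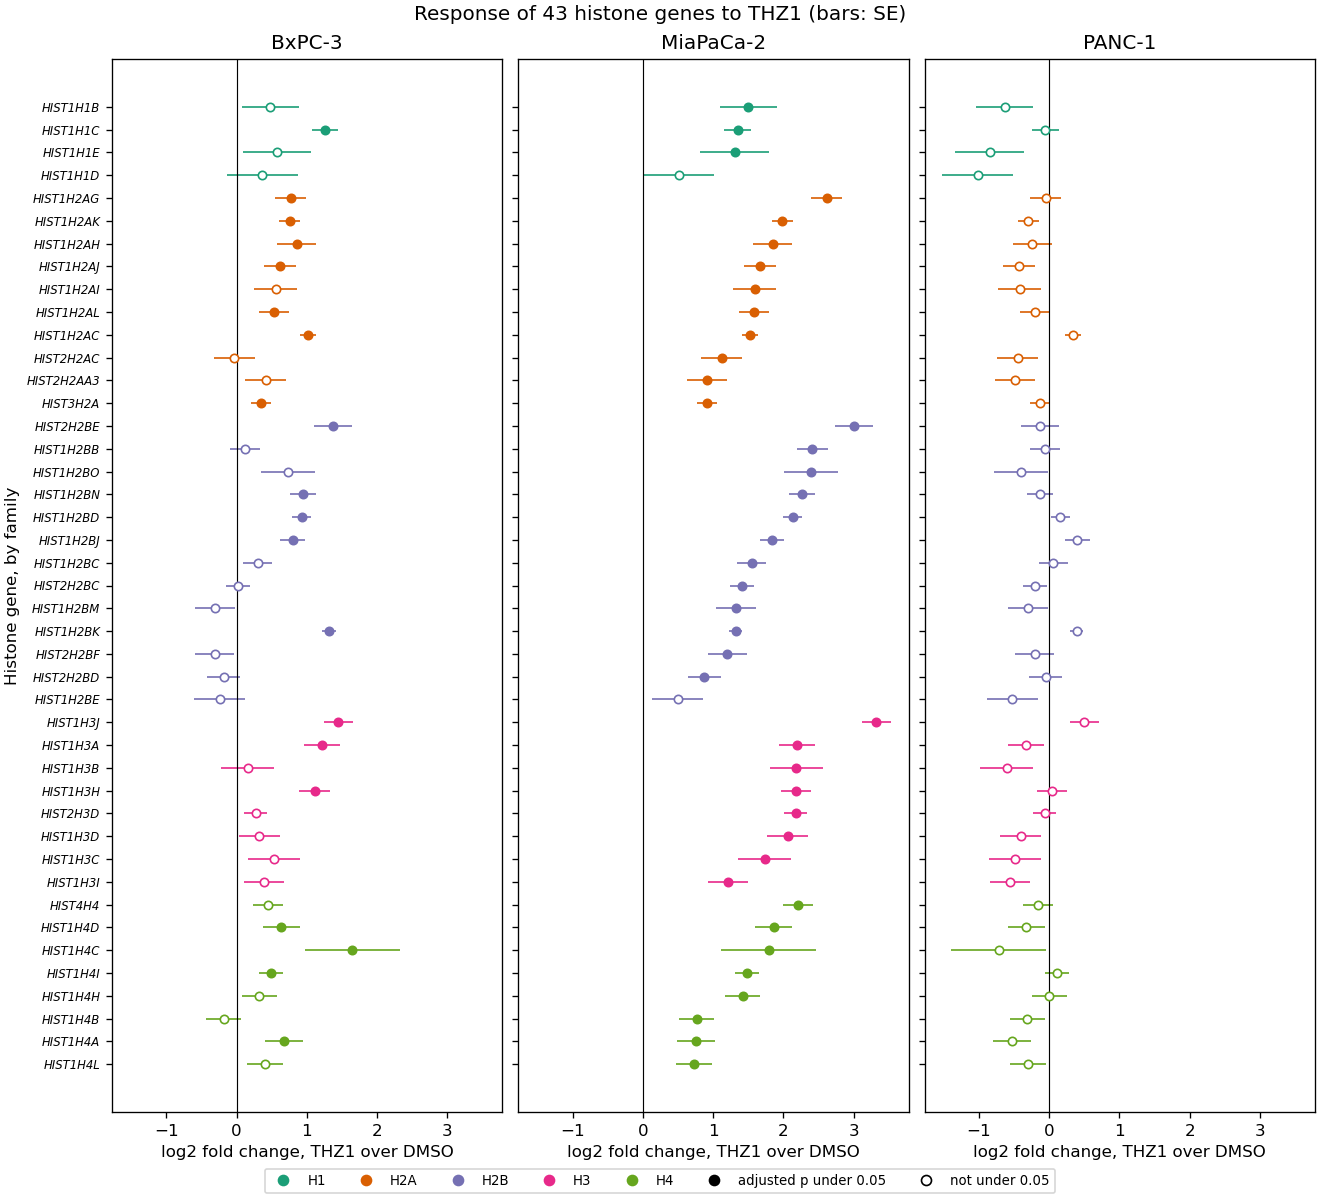
Log2 fold change of THZ1 over DMSO (horizontal axis, bars 1 SE) for the 43 tested histone genes in BxPC-3, MiaPaCa-2 and PANC-1, ordered by family and coloured by it; filled points have an adjusted p under 0.05. Filled points number 20 in BxPC-3, 41 in MiaPaCa-2 and 0 in PANC-1 on the deposited scale; on the ERCC scale the BxPC-3 median turns to -0.12.

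Among linker histones, HIST1H1C had the highest mean. Its level was 53.4, 43.8 and 48.6 in MiaPaCa-2 THZ1 libraries, against 18.9, 17.4 and 19.1 in DMSO libraries. In BxPC-3 it was 28.4, 33.5 and 28.0 with THZ1, against 12.4, 10.5 and 13.0 with DMSO. THZ1 lay above DMSO in each library of both lines, with log2 fold changes of 1.35 ± 0.19 in MiaPaCa-2 (SE, adjusted p = 1.54e-05) and 1.26 ± 0.19 in BxPC-3 (adjusted p = 2.61e-05). Its ERCC-scale values were 0.10 and 0.13, neither called. In PANC-1 it was 13.2, 11.7 and 12.3 with THZ1, against 20.4, 10.9 and 9.48 with DMSO, and the groups overlapped.

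HIST1H1E, the other H1 gene with a mean of at least 5, was less even. MiaPaCa-2 levels were 8.98, 14.0 and 8.95 with THZ1, against 3.20, 5.23 and 2.77 with DMSO (log2 fold change 1.31 ± 0.49, adjusted p = 0.0316). BxPC-3 levels were 6.62, 7.48 and 7.67 with THZ1, against 5.17, 3.96 and 4.55 with DMSO, and the groups did not overlap, yet the change of 0.57 ± 0.49 did not pass (adjusted p = 0.329). PANC-1 THZ1 libraries had 1.27, 1.98 and 2.68, against 16.9, 2.25 and 1.502 in DMSO libraries. Without that high DMSO library the SE in BxPC-3 was 0.19 and the adjusted p 0.0111. The MiaPaCa-2 call was lost when any 1 of 3 libraries was left out (MiaPaCa-2 THZ1 replicate 2 or DMSO replicate 1 or 3). It was also lost on the ERCC scale, where the change was 0.21 in MiaPaCa-2 (adjusted p = 0.676) and turned to -0.43 in BxPC-3 (adjusted p = 0.429).

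HIST1H2AC was the leading H2A gene. Levels in MiaPaCa-2 were 31.1, 27.2 and 26.2 with THZ1, against 9.43, 9.001 and 8.84 with DMSO. Levels in BxPC-3 were 25.9, 31.99 and 32.8 with THZ1, against 14.0, 15.2 and 14.0 with DMSO. It was called in both, at 1.53 ± 0.11 (adjusted p = 1.67e-08) and 1.01 ± 0.11 (adjusted p = 9.27e-07), while on the ERCC scale the values were 0.32 and -0.12 and neither passed. In PANC-1 it was 8.58, 9.70 and 9.70 with THZ1, against 6.63, 6.69 and 8.26 with DMSO. These libraries did not overlap, but the change of 0.34 ± 0.11 did not pass (adjusted p = 0.128).

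HIST1H2AG rose far more in MiaPaCa-2, to 21.6, 23.4 and 22.4 with THZ1, against 3.36, 2.64 and 2.53 with DMSO (2.62 ± 0.22, adjusted p = 7.47e-08). In BxPC-3 it reached 5.45, 4.85 and 4.76 with THZ1, against 2.75, 3.05 and 1.90 with DMSO (0.77 ± 0.22, adjusted p = 0.00687; -0.15 on the ERCC scale). HIST3H2A, the lone tested HIST3 gene, differed between lines at every treatment. It had 31.7, 28.2 and 23.9 in MiaPaCa-2 with THZ1, against 15.4, 14.5 and 13.0 with DMSO, but 0.691, 0.594 and 1.09 in PANC-1 with THZ1, against 0.789, 1.02 and 1.04 with DMSO. Its change was 0.92 ± 0.14 in MiaPaCa-2 (adjusted p = 3.87e-05) and 0.35 ± 0.14 in BxPC-3 (adjusted p = 0.0424), turning to -0.32 and -0.66 on the ERCC scale. The BxPC-3 call was lost in 7 of the 18 fits that leave out 1 library.

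HIST1H2BK, the member with the highest level and with 288 to 1540 reads per library, changed by nearly the same amount in both lines. In MiaPaCa-2 it had 105.7, 105.5 and 85.9 with THZ1, against 39.9, 40.1 and 36.8 with DMSO. In BxPC-3 it had 115.3, 106.2 and 124.3 with THZ1, against 41.8, 47.9 and 47.2 with DMSO. Both log2 fold changes were 1.32 ± 0.10 (adjusted p = 1.79e-08 and 9.9e-09), and on the ERCC scale they were 0.05 and 0.14, neither passing. PANC-1 libraries had 58.1, 52.2 and 58.3 with THZ1, against 45.5, 42.5 and 39.9 with DMSO. These did not overlap, and the change of 0.39 ± 0.10 missed the threshold with all libraries (adjusted p = 0.0718) and passed it without DMSO replicate 1, at 0.44 ± 0.09 (adjusted p = 0.00658). Of its words of 50 bases, 22.6% also occur in the transcript of another histone gene, so some of its reads may be shared.

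HIST2H2BE, whose promoter and stem-loop are printed above, had 66.6, 70.4 and 62.4 in MiaPaCa-2 with THZ1, against 6.88, 7.22 and 8.19 with DMSO. BxPC-3 had 17.7, 19.3 and 16.2 with THZ1, against 6.399, 6.401 and 5.87 with DMSO. The changes were 3.00 ± 0.27 (adjusted p = 1.65e-07) and 1.37 ± 0.27 (adjusted p = 0.000416), and 1.79 and 0.29 on the ERCC scale, where the second did not pass. HIST1H2BD, another H2B gene, had 25.4, 29.1 and 25.3 in MiaPaCa-2 with THZ1, against 5.42, 5.12 and 5.30 with DMSO (2.13 ± 0.13, adjusted p = 3.92e-09). BxPC-3 levels were 10.8, 9.37 and 9.04 with THZ1, against 4.88, 5.61 and 3.63 with DMSO (0.93 ± 0.13, adjusted p = 1.82e-05; -0.11 on the ERCC scale). In both lines the groups of both genes were separate.

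HIST1H3J was the H3 gene with the highest mean and had the largest log2 fold change of the tested members in MiaPaCa-2. It had 21.2, 21.4 and 20.6 with THZ1, against 1.25, 1.08 and 1.30 with DMSO (3.32 ± 0.21, adjusted p = 3.96e-09). In BxPC-3 it had 6.70, 5.10 and 4.60 with THZ1, against 1.94, 1.22 and 0.979 with DMSO (1.45 ± 0.21, adjusted p = 1.77e-05). PANC-1 gave 1.67, 1.25 and 1.09 with THZ1, against 1.42, 0.307 and 0.404 with DMSO, where only DMSO replicate 1 overlapped the THZ1 libraries. Without it the change was 0.78 ± 0.17 (adjusted p = 0.00847).

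HIST1H4C, the leading H4 gene, had 39.7, 48.4 and 48.8 in BxPC-3 with THZ1, against 9.95, 13.4 and 19.8 with DMSO. MiaPaCa-2 had 24.8, 26.5 and 29.8 with THZ1, against 9.02, 6.09 and 6.42 with DMSO. Groups were separate in both lines, but the SE was 0.68, so that the changes of 1.65 and 1.79 passed narrowly (adjusted p = 0.0465 and 0.0334). The BxPC-3 call was lost in 15 of the 18 fits that leave out 1 library. PANC-1 had 7.89, 7.92 and 10.0 with THZ1, against 95.2, 6.08 and 4.74 with DMSO. Leaving out the DMSO library at 95.2 brought the SE to 0.17 and the adjusted p to 1.13e-08 in BxPC-3 and 3.34e-09 in MiaPaCa-2. On the ERCC scale with all libraries both calls were lost, at 0.50 in BxPC-3 (adjusted p = 0.491) and 0.60 in MiaPaCa-2 (adjusted p = 0.363).

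**Figure D3:**
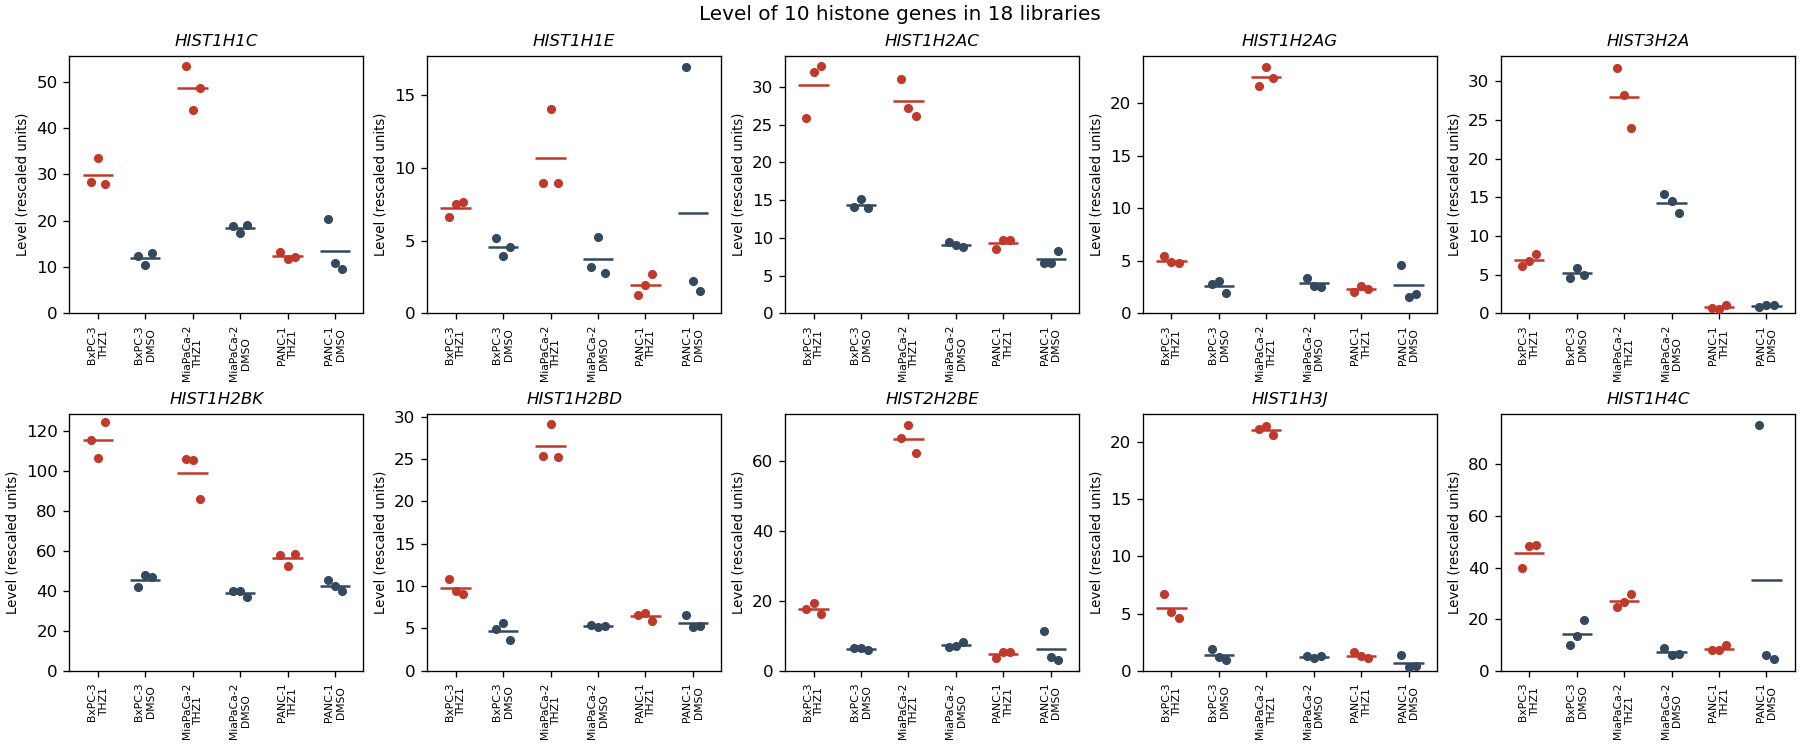
Level (vertical axes, rescaled units) of the 10 histone genes given by library, in 18 libraries with THZ1 left of DMSO for each line; points are libraries and lines group means. HIST2H2BE, HIST1H3J and HIST1H2AG stand highest in MiaPaCa-2 THZ1 libraries, HIST3H2A differs between lines, and HIST1H4C and HIST1H1E are highest in PANC-1 DMSO replicate 1.

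The response itself was then compared between lines. MiaPaCa-2 minus BxPC-3 was positive for all 43 tested members and called for 24 (0 lower), 55.8% against 6.14% of all genes called higher and 7.66% called lower. HIST2H3D and HIST1H2BB, which passed the filter only through MiaPaCa-2 THZ1 libraries, are among these 24. So is HIST1H4D, which passed it through THZ1 libraries of MiaPaCa-2 and BxPC-3. The median difference was 1.06 log2 units, 1.12 above the median of all genes as deposited, and 1.03, 1.02 and 1.05 above it on the ERCC, equal-sum and TMM scales. Without PANC-1 DMSO replicate 1, 37 were called (14.7% of all genes were higher). The members did not differ alike. HIST1H3J differed by 1.87 ± 0.30 (SE, adjusted p = 0.00049), HIST1H2AG by 1.85 (adjusted p = 0.000903), HIST2H2BE by 1.63 ± 0.39 (adjusted p = 0.00968) and HIST1H2BD by 1.21 (adjusted p = 0.000468). HIST1H2AC differed by 0.51 (adjusted p = 0.0391). The highest member of all, HIST1H2BK, differed by 0.003 ± 0.137 (adjusted p = 0.994) and HIST1H1C by 0.09 ± 0.27 (adjusted p = 0.89); these SEs leave room for differences of either sign.

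**Figure D4:**
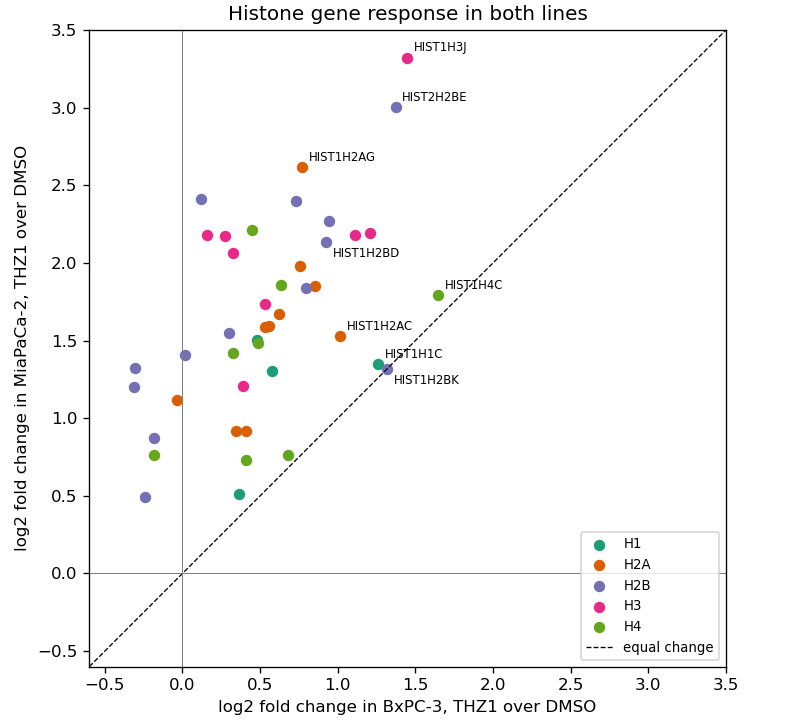
Log2 fold change of THZ1 over DMSO for the 43 tested histone genes, in MiaPaCa-2 (vertical axis) against BxPC-3 (horizontal axis), coloured by family; the dashed line marks equal change. All points lie above the dashed line, HIST1H2BK by 0.003 and HIST1H3J by 1.87 log2 units; on the ERCC scale 39 of the 43 differences were positive.

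PANC-1 minus BxPC-3 was called for 15 members, each lower in PANC-1, 34.9% against 30.8% of all genes called lower, which is near the background. The 15 include HIST1H3A, HIST1H4A and HIST1H4D. On the ERCC scale the count was 1 (1.62% of all genes). At equal library sums it was 3, with no share of all genes given, which shows only that the count moves. The median difference was -0.82, and -0.45 without PANC-1 DMSO replicate 1. PANC-1 minus MiaPaCa-2 was called for 41 members, each lower in PANC-1. These were 95.3% against 27.4% of all genes, with a median of -1.97. HIST2H3D, HIST1H2BB, HIST2H2AA3 and HIST1H4A are among the 41, and they met the filter only because of MiaPaCa-2 THZ1 libraries. HIST1H3A and HIST1H4D, which met it through THZ1 libraries of MiaPaCa-2 and BxPC-3, are also among the 41. None of these genes adds support to the count. Without PANC-1 DMSO replicate 1 the count was again 41 members (35.4% of all genes), with a median of -1.39. On the ERCC scale, PANC-1 minus MiaPaCa-2 was called for 22 members (1.60% of all genes) and MiaPaCa-2 minus BxPC-3 for 11 (2.43% of all genes). The comparisons of response share libraries pairwise and are not independent.

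With DMSO alone, the count of histone genes that differed between lines depended on 1 library. With all libraries, MiaPaCa-2 minus BxPC-3 was called for 9 of 43 members, 6 higher and 3 lower (20.9%, against 62.6% of all genes). PANC-1 minus BxPC-3 was called for 5, all lower (11.6%, against 59.1%), and PANC-1 minus MiaPaCa-2 for 10, 1 higher and 9 lower (23.3%, against 60.8%). Without PANC-1 DMSO replicate 1 the counts were 20 (46.5%, against 75.6% of all genes), 20 (46.5%, against 69.7%) and 32 (74.4%, against 70.9%). HIST3H2A had the lowest p in each pair of lines, at 1.31 for MiaPaCa-2 minus BxPC-3 (adjusted p = 3.62e-07), -1.66 for PANC-1 minus BxPC-3 (adjusted p = 2.36e-08) and -2.97 for PANC-1 minus MiaPaCa-2 (adjusted p = 1.43e-11). HIST1H2AC was lower in MiaPaCa-2 than in BxPC-3 (-0.61, adjusted p = 0.000147) and lower in PANC-1 than in BxPC-3 (-0.92, adjusted p = 2.02e-06). The other genes of these counts are named after their values were seen. Higher in MiaPaCa-2 than in BxPC-3 were also HIST2H2AC (1.63), HIST1H2AJ (0.93), HIST1H3D (0.80), HIST2H2BC (0.69) and HIST1H1C (0.59), and lower were HIST4H4 (-1.12) and HIST1H2BJ (-0.64). Lower in PANC-1 than in BxPC-3 were also HIST4H4 (-1.38), HIST2H2BF (-0.93) and HIST1H3J (-0.51). Lower in PANC-1 than in MiaPaCa-2 were also HIST2H2AC (-1.59), HIST1H2AJ (-0.99), HIST2H2BF (-0.92), HIST1H3H (-0.69), HIST2H2BC (-0.59), HIST2H3D (-0.51), HIST1H1C (-0.49) and HIST1H2AC (-0.31), and HIST1H2BJ was higher, by 0.59. HIST1H2BK did not pass in any pair, with differences of -0.22, -0.10 and 0.13.

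The library that stands apart, PANC-1 DMSO replicate 1, was described further, since its level of histone genes was high against both other DMSO libraries of the line. The ratio of its level to the mean of replicates 2 and 3 had a median of 6.16 over the 43 tested members and 1.30 over all genes tested. It exceeded 2 for 34 members (79.1%) and for 26.9% of all genes. The ratio of summed levels was 11.7 for H4, 6.61 for H3, 4.05 for H1, 2.08 for H2A and 1.53 for H2B. Among single genes it ran over 0.766 for HIST3H2A, 0.887 for HIST1H2AC and 1.103 for HIST1H2BK to 17.6 for HIST1H4C and 20.6 for HIST1H1D. Members with an annotated poly(A)-signal transcript had a median ratio of 2.71 (15 genes), and those without one 7.67 (28 genes). This split is one of annotation and not of poly(A) status. HIST1H1C and HIST1H2BK, with annotated transcripts of 642 and 381 bases, count as without one, though both are listed as known to give polyadenylated transcripts. The same split gave median log2 fold changes of 1.53 and 1.63 in MiaPaCa-2 and 0.41 and 0.53 in BxPC-3. The 5 members listed as known to give polyadenylated transcripts had a median ratio of 1.27. They were called higher 5 of 5 in both MiaPaCa-2 and BxPC-3 (36.5% and 40% of all genes), with medians of 1.53 and 1.26. The testis-type genes HIST1H1T, HIST1H2AA, HIST1H2BA and HIST3H3 were not analysed here.

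Other gene lists had lower ratios. Replication-independent histone genes, here a list of 12 histone genes outside the members, had a median ratio of 0.945 in this library. Genes of histone mRNA processing had 0.812 and genes of S phase 0.852. Of 4 noncoding RNAs chosen after their values were seen, 3 had ratios above the histone median, with RN7SK at 409.6 in this library, against 26.6 and 20.3 in PANC-1 DMSO replicates 2 and 3, RMRP 201.4 against 12.3 and 10.8, and RPPH1 216.9 against 19.3 and 16.4. RN7SL1, the RNA of the signal recognition particle, was at 825.3 against 362.6 and 303.1, a ratio of 2.48, below the histone median of 6.16. These are abundant RNA polymerase III transcripts that lack a poly(A) tail. In MiaPaCa-2, RN7SK was 45.0, 45.2 and 44.9 with THZ1, against 15.9, 30.1 and 23.2 with DMSO, and RPPH1 38.8, 34.4 and 46.5 with THZ1, against 15.4, 22.7 and 15.8 with DMSO; both groups were separate. In BxPC-3, RN7SK was 45.7, 59.3 and 53.0 with THZ1, against 56.6, 37.1 and 28.6 with DMSO, which overlap. Their part in the histone results was not tested.

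**Figure D5:**
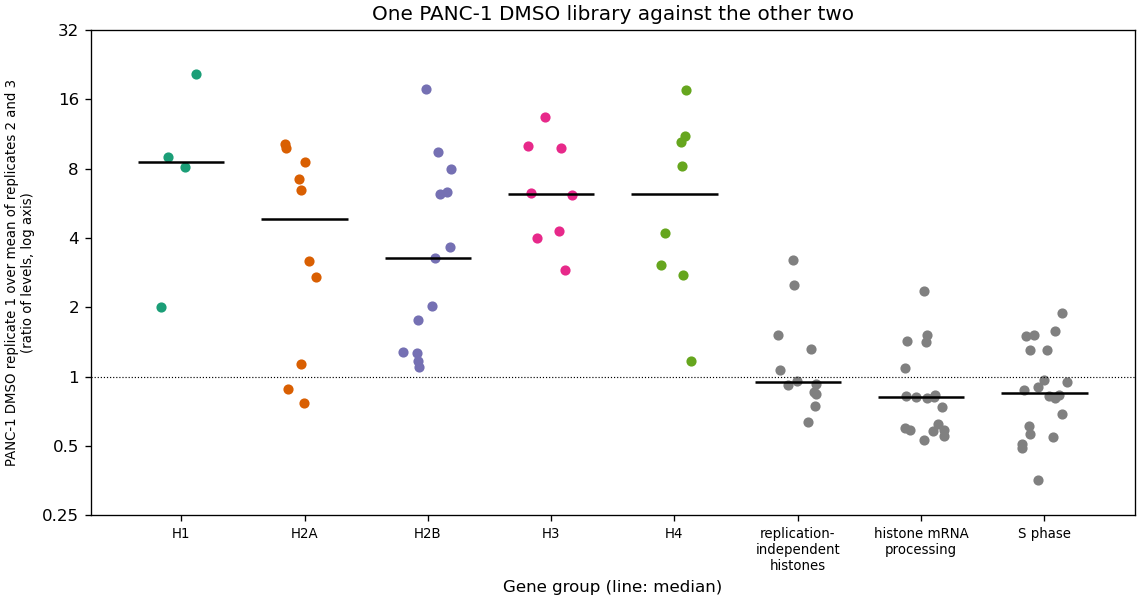
Ratio of the level in PANC-1 DMSO replicate 1 to the mean of PANC-1 DMSO replicates 2 and 3 (vertical axis, log scale) for single genes in the 5 histone families and 3 comparison lists; lines are medians. Most histone genes lie above 2, with HIST1H1D at 20.6, while the medians of the comparison lists are 0.945, 0.812 and 0.852.

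Genes of the wider histone pathway went in both directions, and directions below are on the deposited scale. Counts in the lists below stand beside the shares of all genes called higher and lower. These shares were 40% and 18.9% in BxPC-3, 36.5% and 19.8% in MiaPaCa-2 and 0.274% and 0.228% in PANC-1. The lists were not tested against them. On the ERCC scale, of the genes named as higher, SRRT kept a positive value in both responding lines (0.26 in MiaPaCa-2 and 0.74 in BxPC-3), H2AFJ in MiaPaCa-2 (0.11) and H3F3A in BxPC-3 (0.04), and the others named turned negative. Of 12 replication-independent histone genes, 6 were higher and 2 lower with THZ1 in BxPC-3, 8 and 1 in MiaPaCa-2 and 0 and 0 in PANC-1, with medians of 0.41, 0.71 and 0.09. H3F3A, which encodes the variant H3.3, had 465.4, 471.5 and 462.7 in MiaPaCa-2 with THZ1, against 201.0, 200.5 and 197.2 with DMSO (1.22 ± 0.07, adjusted p = 1.15e-09), and the same 1.22 in BxPC-3 (adjusted p = 5.34e-10). H2AFJ rose by 1.39 in MiaPaCa-2 and 0.89 in BxPC-3. CENPA, the H3 variant of centromeres, fell by 0.98 in MiaPaCa-2 and by 1.48 in BxPC-3 (adjusted p = 7.29e-07 and 5.14e-09). H2AFX, the variant phosphorylated at DNA breaks, did not pass in any line, with values of -0.12, -0.32 and -0.25 in MiaPaCa-2, BxPC-3 and PANC-1.

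Of 18 genes of histone mRNA transcription and 3′-end processing, 6 were higher and 6 lower in BxPC-3, 7 and 7 in MiaPaCa-2 and 0 and 0 in PANC-1, with medians of 0.01, 0.17 and 0.12. SLBP, which binds the stem-loop, did not pass: it had 98.0, 96.3 and 96.9 in MiaPaCa-2 with THZ1, against 79.2, 83.1 and 83.4 with DMSO (0.24 ± 0.15, adjusted p = 0.172), and its change in BxPC-3 was 0.09 ± 0.15 (adjusted p = 0.609). NPAT, the coactivator of histone gene transcription, fell to 6.41, 7.05 and 9.79 in MiaPaCa-2 with THZ1, against 28.3, 29.8 and 34.7 with DMSO (-1.88 ± 0.21, adjusted p = 1.49e-06), and by 1.94 in BxPC-3 (adjusted p = 7.96e-07). CASP8AP2, which encodes FLASH of the processing complex, fell by 2.11 in MiaPaCa-2 and by 2.23 in BxPC-3 (adjusted p = 6.96e-09 and 2.13e-09). SRRT, which encodes the cap-complex partner ARS2, rose by 1.55 in MiaPaCa-2 and 1.93 in BxPC-3, and NCBP1, the large cap-binding subunit, by 0.47 and 0.49.

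The NELF and P-TEFb list, whose products pause and release RNA polymerase II, had 4 of 8 higher and 1 lower in BxPC-3, 5 and 0 in MiaPaCa-2 and 0 and 0 in PANC-1, with medians of 0.44, 0.47 and 0.10. HEXIM1, the inhibitor of P-TEFb, rose by 1.18 in MiaPaCa-2 (adjusted p = 2.24e-06) and had 0.16 in BxPC-3 (adjusted p = 0.324). CDK9, the P-TEFb kinase, rose by 0.47 in MiaPaCa-2 (adjusted p = 0.00237) and fell by 0.30 in BxPC-3 (adjusted p = 0.0341), and its partner CCNT2 rose by 0.85 in BxPC-3 (adjusted p = 0.00475). NELFA did not pass in any of the lines. Of 9 histone chaperone genes, 3 were higher and 3 lower in both BxPC-3 and MiaPaCa-2 and 0 and 0 in PANC-1, with medians of 0.01, 0.10 and -0.05. NAP1L1 rose by 0.99 in MiaPaCa-2 and 0.88 in BxPC-3 and HAT1, which acetylates new H4, by 0.80 and 0.84, while CHAF1A, a subunit of the replication-coupled assembly factor CAF-1, fell by 0.70 and 1.11 and ASF1A by 0.48 and 1.02.

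Genes of S phase served as a comparison for the replication-dependent genes. Of 20, 13 were higher and 3 lower in BxPC-3 (40% and 18.9% of all genes), 14 and 2 in MiaPaCa-2 (36.5% and 19.8%), and 0 and 0 in PANC-1 (0.274% and 0.228%). Their medians were 0.49, 0.57 and 0.16, against 0.53, 1.59 and -0.24 for the histone members. TYMS, which makes thymidylate, rose by 0.92 in MiaPaCa-2 and 0.97 in BxPC-3, and RRM1 of ribonucleotide reductase by 0.72 and 0.87. E2F1 and the licensing factor CDT1 had 0.00 and 0.06 in MiaPaCa-2, neither called, and fell by 0.95 and 0.90 in BxPC-3 (adjusted p = 9.02e-06 and 0.000446). The share of cells in S phase was not measured. On the ERCC scale the medians of these lists turned negative in BxPC-3 and MiaPaCa-2, at -0.69 and -0.70 for S phase and -0.48 and -0.52 for the replication-independent histones, whereas the histone members had -0.12 and 0.65.

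Counting limits apply to the lower members. HIST2H2AA3 shared 100% of its words of 50 bases with another histone gene, HIST2H2BD 95%, HIST1H2AJ 83.7%, HIST2H3D 80.4%, HIST2H2BC 79.7% and HIST1H2AI 62.3%, and how the authors' counting split such reads is not given in the sources used here. HIST2H2BD and HIST2H2BC are annotated as transcribed pseudogenes. The 33 tested members that share under 20% of these words had medians of 1.73 in MiaPaCa-2 and 0.53 in BxPC-3, beside 1.36 and 0.34 for the other 10.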

How the data were processed

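Polyadenylated RNA of 18 libraries, made with a stranded kit per the labels' protocols, was measured; the submitters' processing notes name STAR and hg19. Sources used here name no counting program, annotation or filter. One deposited table from the authors has a signal per gene and library. Multiplied by 1 whole number per library (112 to 437), 100% of its values came within 0.001 of a whole count of reads. Levels are the deposited signal times 17.6795. The deposited log2 columns were not used.

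Genes at 1 or more in at least 3 libraries (15354) were fitted by limma-trend on log2(level + 1) with limma 3.58.1 in R 4.3.3, as 6 group means in a single fit, with Benjamini-Hochberg adjustment at 0.05. Fold changes are on that scale and understate low genes. edgeR 4.0.16 and DESeq2 1.42.0 on recovered counts were alternatives. With the deposited scaling edgeR called 9270 genes in BxPC-3, 8738 in MiaPaCa-2 and 40 in PANC-1; limma called 9055, 8640 and 77. Intervals cover counting error only. The method was also run on simulated data with the same spread in every library. That simulation held no library that stands apart, so it cannot speak to the effect of PANC-1 DMSO replicate 1.

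Sequences came from GENCODE 29 and RefSeq; all 45 members were in GENCODE. Members were named by level, change and difference between lines, with some always named. The members and lists were chosen with earlier results of these data known. A group of 22 rows whose names had become dates keeps no gene name.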

Additional observations from a re-analysis of the deposited data

Results flagged for a closer look

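Results are listed where the test of a difference in response between lines passed. MiaPaCa-2 minus BxPC-3 differed for 24 histone genes (55.8%, against 6.14% of all genes called higher). Among members given by library, the differences were 0.51 for HIST1H2AC, 1.87 for HIST1H3J, 1.63 for HIST2H2BE, 1.85 for HIST1H2AG and 1.21 for HIST1H2BD.

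PANC-1 minus BxPC-3 differed for 15 histone genes (34.9%, against 30.8% of all genes called lower). It differed for 1 on the ERCC scale (1.62% of all genes) and for 3 at equal library sums (share of all genes not given). The values were -1.31 for HIST1H1C, -0.68 for HIST1H2AC, -0.93 for HIST1H2BK, -0.95 for HIST1H3J, -1.5 for HIST2H2BE, -0.82 for HIST1H2AG and -0.77 for HIST1H2BD.

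PANC-1 minus MiaPaCa-2 differed for 41 histone genes (95.3%, against 27.4% of all genes called lower). The values were -1.4 for HIST1H1C, -1.19 for HIST1H2AC, -0.93 for HIST1H2BK, -2.82 for HIST1H3J, -2.51 for HIST1H4C, -3.13 for HIST2H2BE, -1.05 for HIST3H2A, -2.16 for HIST1H1E, -2.67 for HIST1H2AG and -1.97 for HIST1H2BD.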

How the results depend on the processing

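Counts of histone genes moved with the scale and with the libraries in the fit. Counts in this section without a share of all genes beside them show only that movement. Higher calls in BxPC-3 (20) numbered 1 when scaled to ERCC (1.37% of all genes), 8 at equal library sums and 13 under TMM. In edgeR (TMM) they numbered 12 of 43 members, beside 4111 of 15354 genes. Lower calls (0) became 7 on the ERCC scale (59.2% of all genes) and 2 on the equal-sum scale. Higher calls in MiaPaCa-2 (41) became 22 on the ERCC scale (1.45% of all genes). DESeq2 called 2 higher and 1 lower in PANC-1 (2.30% and 2.20% of all genes), where the main count was 0 for both. MiaPaCa-2 minus BxPC-3 responses (24) became 11 on the ERCC scale (2.43% of all genes). PANC-1 minus BxPC-3 (15) numbered 1 when scaled to ERCC (1.62% of all genes), 3 at equal library sums and 9 under TMM. In edgeR (TMM) it numbered 9, beside 2248 of 15354 genes called lower. PANC-1 minus MiaPaCa-2 (41) became 22 on the ERCC scale (1.60% of all genes). Between DMSO groups, MiaPaCa-2 minus BxPC-3 (9) became 14 on the ERCC scale and 20 with only the groups compared, PANC-1 minus BxPC-3 (5) became 3 with only the groups compared, 9 in edgeR with TMM and 10 in DESeq2, and PANC-1 minus MiaPaCa-2 (10) became 4 with only the groups compared. Leaving out libraries one at a time gave 13 to 30 higher and 0 to 0 lower in BxPC-3, 38 to 43 and 0 to 0 in MiaPaCa-2 and 0 to 2 and 0 to 4 in PANC-1. For the response differences, in the order above, it gave 17 to 37, 12 to 26 and 37 to 43, and for the DMSO groups 8 to 20, 4 to 20 and 6 to 32. Signs turned for the median in BxPC-3 on the ERCC scale (-0.123) and in PANC-1 without DMSO replicate 1 (0.111), and in BxPC-3 on the ERCC scale for HIST1H2AC (-0.12), HIST3H2A (-0.66), HIST1H2AG (-0.15), HIST1H2BD (-0.11) and HIST1H1E (-0.43, not called on either scale). HIST3H2A also turned with equal sums in BxPC-3 (-0.28) and on the ERCC scale in MiaPaCa-2 (-0.32). The cause of these shifts was not tested. The median in PANC-1 ran over -0.428 (without PANC-1 DMSO replicate 2) to 0.111 as libraries were left out. Of 30 results for single histone genes, a filter at 5 and a pseudocount of 5 left all 30 on the same side of the threshold, no filter and a pseudocount of 0.5 left 29. DESeq2 gave no adjusted p for HIST1H4C.

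Replicate numbers gave no uniform pairing of the libraries. Same-number correlations of deviations were 0.086, 0.022 and -0.003 in BxPC-3, 0.14, 0.067 and 0.017 in MiaPaCa-2 and 0.455, 0.3 and -0.031 in PANC-1. In MiaPaCa-2 each THZ1 library correlated best with the DMSO library of its own number, replicate 2 narrowly (0.067 against 0.065). In BxPC-3 and PANC-1 only THZ1 replicate 1 did. With the replicate number as a block, higher calls were 18, 41 and 0 in BxPC-3, MiaPaCa-2 and PANC-1, lower calls 0, 0 and 0, response differences 22, 14 and 40, and DMSO differences 9, 5 and 11; HIST3H2A in BxPC-3 no longer passed (adjusted p = 0.0579).

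Depth limits the low members: 18 of 45 had 3 reads or fewer in at least 1 library, and 12 had 20 or more in every library.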
